A study of Mus musculus with 6 samples.

Results

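Transient receptor potential (Trp) channels were followed in the olfactory epithelium of mouse embryos labelled as lacking Emx2. The channels are Trpa1, the canonical channels Trpc1, Trpc4, Trpc5, Trpc6 and Trpc7, the vanilloid channels Trpv1 and Trpv4, and the melastatin channel Trpm8. They were chosen by gene symbol, as transcript clusters of an exon array that the platform annotation assigns to a single gene, and 8 of the 9 have such a cluster among the 14945 single-gene clusters. The cluster of Trpc5 names another gene as well, so Trpc5 was not analysed here. The set was put together after Trpa1 and Trpc4 had been seen to be higher in the arrays labelled knockout, so the differences of its members are given as a description, with no p, and support nothing further. The 95% intervals printed beside them rest on the spread between pools, moderated over all clusters, and are not a test.

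The tissue was dissected at ED18.5, shortly before birth, from Emx2 Knockout embryos and from Emx2 Homozygous Wildtype embryos, and the labels name no allele, strain or sex. For each genotype 3 arrays were run, every one on RNA pooled from 3 animals. All values are log2 RMA signals, 1 per transcript cluster and array, and every difference is the arrays labelled knockout minus the wildtype arrays on that log2 scale. Emx2, the targeted gene and a homeodomain transcription factor, averaged 8.37 ± 0.03 in the arrays labelled knockout and 8.44 ± 0.13 in the wildtype arrays (SD, n = 3 each). Its cluster gives a single value over all probes, and no source used here says whether these lie outside the deleted part. Its value therefore checks nothing about the labels, and every direction below rests on the genotype labels alone.

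Trp channels are cation channels, many of them permeable to calcium, that open to chemical, thermal or mechanical stimuli or after receptor signalling. TRPA1 is opened by pungent and reactive chemicals such as mustard oil, TRPV1 by capsaicin and heat, and TRPM8 by menthol and cold. In the nose these channels are best known from the endings of trigeminal sensory neurons, whose cell bodies lie outside the epithelium. TRPV4 responds to swelling and warmth in epithelia and other tissues, and TRPC channels open downstream of receptors that activate phospholipase C. Trpm5 is known from microvillous cells of the olfactory epithelium and Trpc2 from vomeronasal neurons.

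Promoter sequence was read from RefSeq's table for build GRCm38.p6, which held Trpc1, Trpc4, Trpc5, Trpc6, Trpc7, Trpv1, Trpv4 and Trpm8 but not Trpa1. In the 250 bases before the annotated transcript start, the homeodomain core TAATTA, which reads the same on both strands, was found in 1 of these 8 promoters, that of Trpm8. Of all 32851 promoters of the table, 4.84% held it in the same window. The windows of Trpc4, whose signal was higher in the arrays labelled knockout, and of Trpm8, whose groups overlapped, are shown because they differ in the motif and in base composition, with 66.4% and 42.8% G and C against a median of 52.4% over all promoters. Capitals mark TAATTA, and the position is given on the plus strand for both genes. The Trpm8 match starts 195 bases before the transcript start.
Trpc4 (chr3:54155807-54156056, plus strand): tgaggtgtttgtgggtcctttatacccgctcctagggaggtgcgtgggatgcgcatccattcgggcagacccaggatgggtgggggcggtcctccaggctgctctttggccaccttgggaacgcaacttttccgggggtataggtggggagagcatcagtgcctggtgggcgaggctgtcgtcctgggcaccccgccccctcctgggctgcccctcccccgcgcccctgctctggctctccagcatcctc
Trpm8 (chr1:88306485-88306734, plus strand): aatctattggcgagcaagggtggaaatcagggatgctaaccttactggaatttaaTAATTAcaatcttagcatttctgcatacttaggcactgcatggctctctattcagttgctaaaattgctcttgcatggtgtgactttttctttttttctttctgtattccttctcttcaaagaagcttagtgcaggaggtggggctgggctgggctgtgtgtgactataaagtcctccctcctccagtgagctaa
These matches describe letters in the window only, and the array values do not measure binding.

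Trpa1 showed the largest difference among the channels. Its signal was 5.41, 5.63 and 5.37 in the arrays labelled knockout, against 4.17, 4.30 and 4.19 in the wildtype arrays. All 3 arrays labelled knockout were above all wildtype arrays, with 1.07 between the lowest of the first and the highest of the second. The means were 5.47 ± 0.14 in the arrays labelled knockout and 4.22 ± 0.07 in the wildtype arrays (SD, n = 3 each). The difference was 1.25 (SE 0.10, 95% interval 1.01 to 1.49), a 2.38-fold higher signal, and ranked 13 among the positive differences of the 16661 clusters tested. With both directions counted, 236 clusters, Trpa1 among them, differed by at least that much. Its mean over all arrays, 4.84, lay below the 25th percentile of all cluster means, 5.99. The background level of single clusters is unknown here, and so is how far it compresses the fold. In RNA of a whole tissue, a change in the number of cells of a type and a change in RNA per cell cannot be told apart.

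Trpc4, which forms channels gated downstream of phospholipase C, was the other channel that was higher. Its signal was 7.38, 7.22 and 7.12 in the arrays labelled knockout, against 6.07, 6.47 and 6.14 in the wildtype arrays. The groups did not overlap, with 0.65 between them, and wildtype replicate 2 was the highest of the wildtype arrays. Means were 7.24 ± 0.13 in the arrays labelled knockout and 6.23 ± 0.22 in the wildtype arrays (SD, n = 3 each). The difference was 1.01 (SE 0.13, 95% interval 0.70 to 1.32), a 2.02-fold higher signal, at rank 22 of the positive differences.

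**Figure D1:**
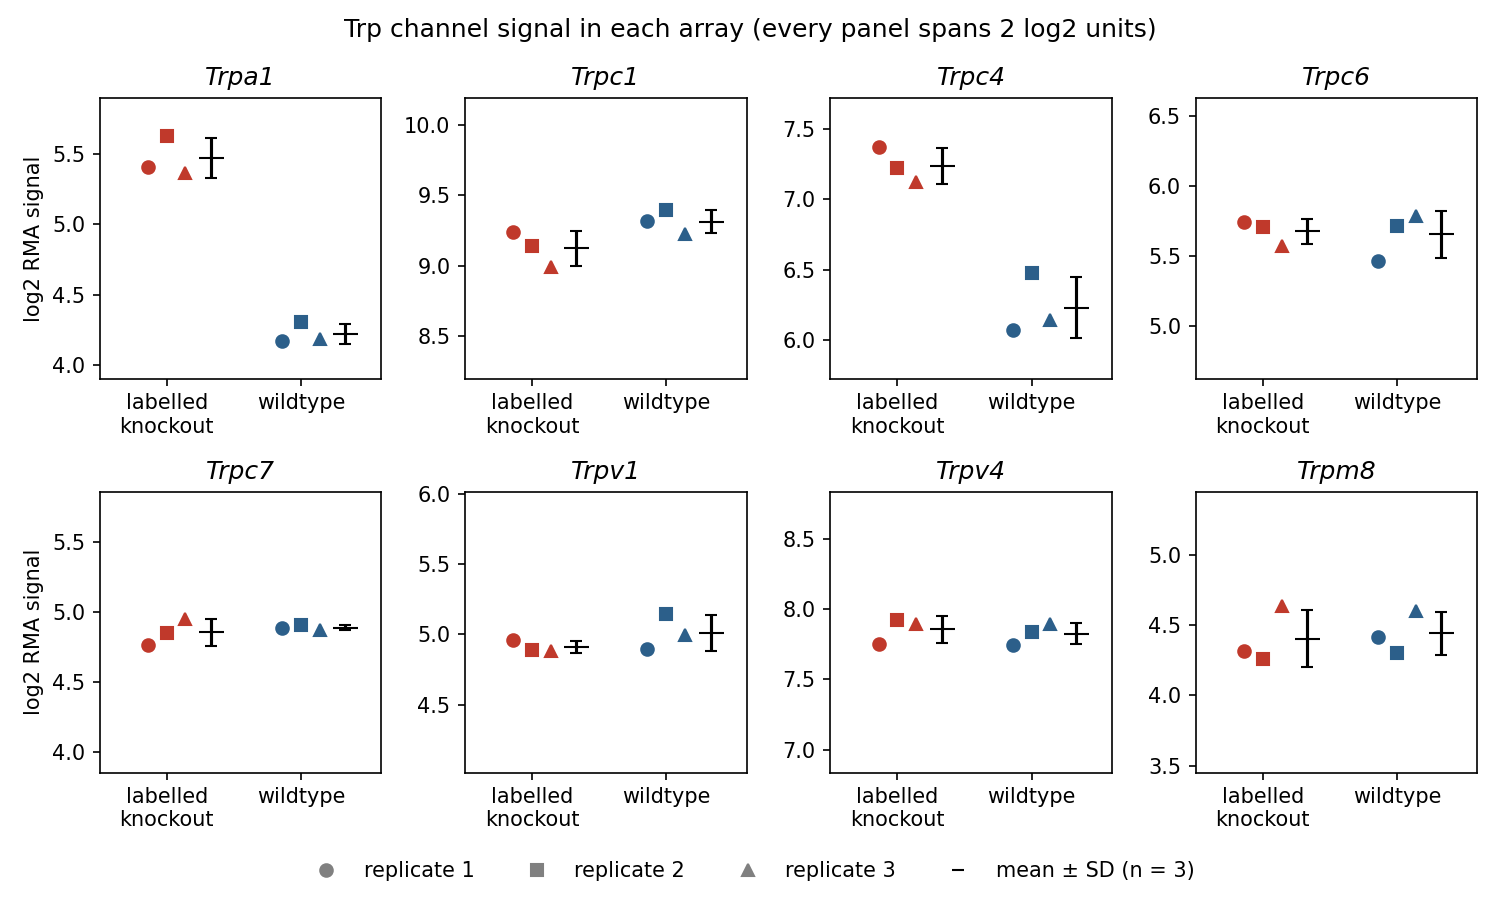
Log2 RMA signal of the 8 measured channels, 1 panel per gene. Each point is an array (a pool of 3 animals), with the arrays labelled knockout in red on the left and the wildtype arrays in blue on the right, and the black bar gives the mean and SD of the 3 arrays. The groups stand apart for Trpa1 and Trpc4 and overlap for the other 6 channels.

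The other canonical channels lay close together in both genotypes. Trpc1, which assembles with other TRPC subunits, was at 9.24, 9.14 and 8.99 in the arrays labelled knockout, against 9.32, 9.39 and 9.23 in the wildtype arrays. Its groups just overlapped, and the difference was -0.19 (95% interval -0.42 to 0.04). Trpc6, a channel opened by diacylglycerol, was at 5.74, 5.71 and 5.58 in the arrays labelled knockout, against 5.47, 5.71 and 5.79 in the wildtype arrays. The wildtype arrays held both the lowest and the highest value, and the difference was 0.02 (95% interval -0.24 to 0.28). Trpc7, also opened by diacylglycerol, was at 4.76, 4.85 and 4.95 in the arrays labelled knockout, against 4.89, 4.90 and 4.87 in the wildtype arrays. The wildtype arrays lay inside the range of the other group, and the difference was -0.03 (95% interval -0.23 to 0.16).

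The thermosensitive channels Trpv1, Trpv4 and Trpm8 overlapped between the genotypes as well. Trpv1, the capsaicin receptor, was at 4.96, 4.88 and 4.88 in the arrays labelled knockout, against 4.89, 5.15 and 4.99 in the wildtype arrays. Its difference was -0.10 (95% interval -0.32 to 0.12), with wildtype replicate 2 the highest array. Trpv4, the osmotically gated channel, was at 7.75, 7.93 and 7.89 in the arrays labelled knockout, against 7.75, 7.84 and 7.90 in the wildtype arrays. The difference was 0.03 (95% interval -0.18 to 0.24), and replicate 1 was the lowest array in each genotype. Trpm8, the menthol receptor, was at 4.31, 4.26 and 4.64 in the arrays labelled knockout, against 4.42, 4.30 and 4.60 in the wildtype arrays. Its difference was -0.04 (95% interval -0.35 to 0.28), and replicate 3 was the highest array in each genotype.

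Across the 8 channels, 4 differences were positive and 4 negative, with a median of -0.01, against a median of -0.04 for all clusters. The arrays of the genotypes did not overlap for 2 of the 8, Trpa1 and Trpc4, where 15.5% of all clusters did not overlap (3.51% higher and 12% lower in the arrays labelled knockout). Since this contrast chose Trpa1 and Trpc4, nothing is read from that count. Of the 8 channels, 5 had a mean below the 25th percentile of all cluster means, Trpa1 among them.

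The pools differed in Y-linked signal, which marks male embryos. The mean of Eif2s3y and Kdm5d was between 6.96 and 8.08 in knockout replicates 2 and 3 and wildtype replicate 2, and between 3.62 and 3.83 in the other arrays. Within each of these sets 1 genotype has a single array, wildtype replicate 2 in the high and knockout replicate 1 in the low set, so the differences within them have no spread and were not tested. For Trpa1 the difference was 1.20 among the arrays with high and 1.23 among those with low Y-linked signal. For Trpc4 it was 0.70 among the arrays with high and 1.27 among those with low Y-linked signal.

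The rest of the Trp superfamily gave no call. Of 19 further genes of the family, 16 were measured, and 0 rose and 0 fell (limma, with 0 at an unadjusted p under 0.05 and a smallest adjusted p of 0.521), against 24 of 16661 clusters called higher, 0.144%, and 316 called lower, 1.9% (limma adjusted p at or under 0.05). Over all clusters 10.1% had an unadjusted p under 0.05, the share against which such counts are read below. Over all clusters, the 316 lower calls numbered 145 without knockout replicate 1, 182 without knockout replicate 2, 150 without knockout replicate 3, 207 without wildtype replicate 1 and 185 without wildtype replicate 3, and the 24 higher calls 13 without knockout replicate 2 and 14 without knockout replicate 3. Among the 16 genes, the differences ran from -0.36 to 0.20 with a median of -0.05, and 5 were positive and 11 negative. The 4 with the smallest p were Trpv5, Trpv2, Mcoln1 and Trpm3. Trpv5, an epithelial calcium channel, was at 4.50, 4.42 and 4.36 in the arrays labelled knockout, against 4.20, 4.15 and 4.32 in the wildtype arrays, a difference of 0.20 (95% interval -0.01 to 0.40). Trpv2 differed by -0.36 (95% interval -0.81 to 0.10), with 7.15 ± 0.21 in the arrays labelled knockout and 7.51 ± 0.35 in the wildtype arrays (SD, n = 3 each). Mcoln1, a cation channel of lysosomes, differed by -0.14 (95% interval -0.33 to 0.06), and Trpm3, a heat- and steroid-sensitive channel, by -0.24 (95% interval -0.68 to 0.19). Arrays of the genotypes did not overlap for Trpv5 in the higher and Mcoln1 in the lower direction, 2 of the 16 genes, beside 15.5% of all clusters.

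**Figure D2:**
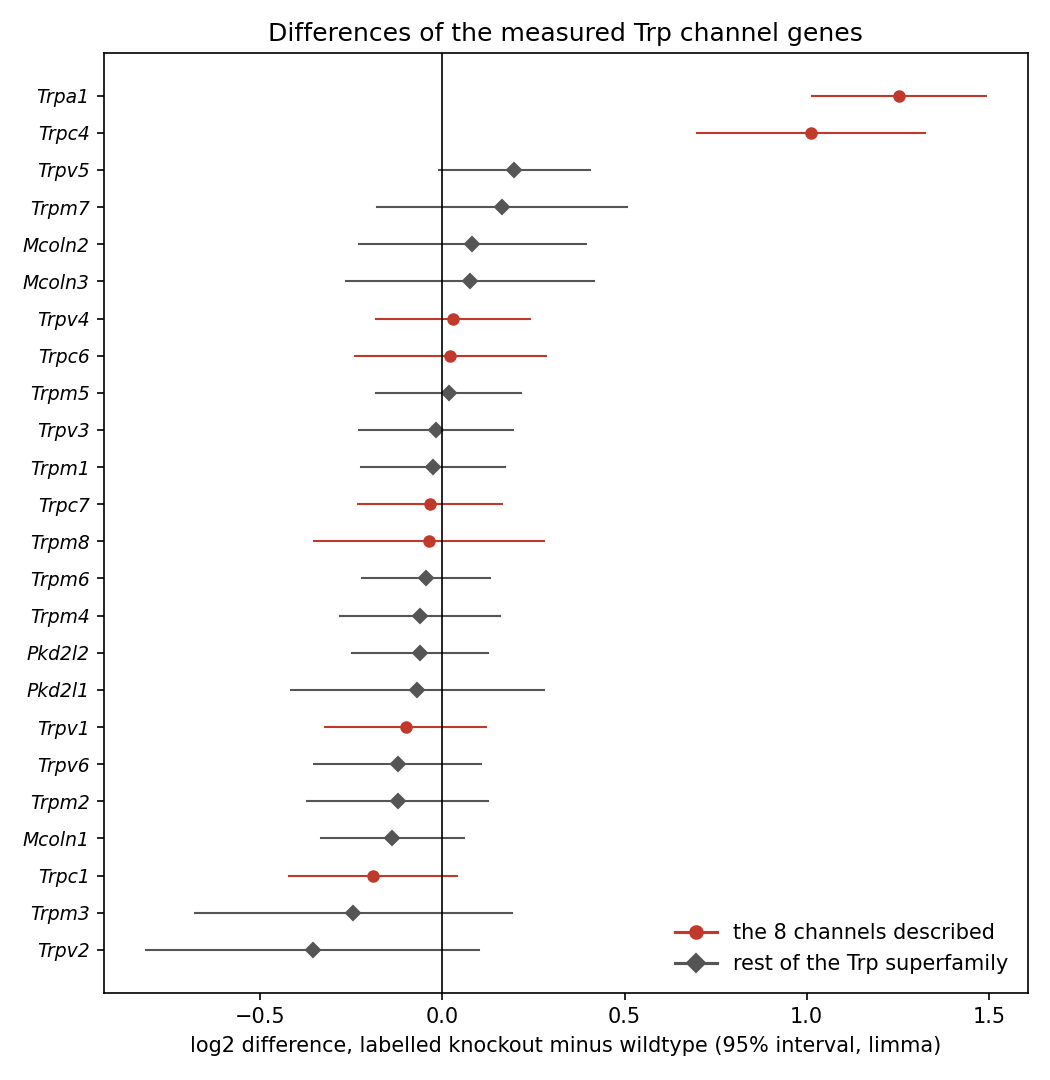
Log2 difference (arrays labelled knockout minus wildtype arrays) of the 24 measured Trp channel genes, with 95% intervals from limma. Red circles are the 8 channels described and grey diamonds the 16 further genes of the superfamily. Trpa1 and Trpc4, which were chosen for their differences, are at 1.25 and 1.01, and the other 22 genes lie between -0.36 and 0.20.

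Genes around the channels in signalling were examined because TRPC channels open after phospholipase C is activated and take part in calcium entry linked to store release. Of 21 measured genes of phospholipase C signalling and store-operated entry, 0 rose and 0 fell, where 0.144% and 1.9% of all clusters did (limma, 0 at an unadjusted p under 0.05, where 10.1% of all clusters were). Their differences ran from -0.27 to 0.35, with a median of -0.02. Plcb4, a phospholipase C, was at 0.35 (limma adjusted p = 0.587) and Itpr3, a calcium release channel of the endoplasmic reticulum, at 0.15 (limma adjusted p = 0.700).

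The cells that could carry the channels were followed through marker lists. Trigeminal sensory neuron markers gave 0 calls in 20 measured genes (limma, 1 at an unadjusted p under 0.05, beside 10.1% of all clusters), 15 of them positive, with a median of 0.04. Tac1, which encodes substance P, was at 7.25 ± 0.24 in the arrays labelled knockout and 6.49 ± 0.19 in the wildtype arrays (SD, n = 3 each), a difference of 0.76 (limma adjusted p = 0.0675). Ret, a receptor of neurotrophic factors, was at -0.19 (limma adjusted p = 0.662). The log2 of the summed linear signal of this list was 11.79 to 11.90 in the arrays labelled knockout and 11.71 to 11.83 in the wildtype arrays, so the groups overlapped. Such a sum is weighted to the brightest genes of the list, and dim genes add little to it. The mean log2 signal of the list, 6.71 to 6.84 in the arrays labelled knockout and 6.65 to 6.72 in the wildtype arrays, overlapped as well. Trpv1 and Trpm8, which these neurons also carry, are described above. Both clusters are dim, with means of 4.96 and 4.42 over all arrays, below the 25th percentile of all cluster means, 5.99. No marker is listed at 0, since RMA gives every cluster a signal. The part of these cells in the Trpa1 and Trpc4 values was not tested.

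Markers of the epithelium's own neurons were also set beside the channels. Of 16 mature olfactory neuron markers 4 fell and 0 rose, where 1.9% of all clusters fell and 0.144% rose. Among the 16, 12 had an unadjusted p under 0.05 (limma), beside 10.1% of all clusters. Arrays of the genotypes stood apart in the lower direction for 11, beside 12% of all clusters. The median was -0.64, with 15 negative differences, of which Pde1c at -0.01 was near 0. The count of 4 called lower was 1 without knockout replicate 1, knockout replicate 3 or wildtype replicate 1, and 2 without wildtype replicate 3. S100a5, a calcium-binding protein, fell by 2.29 (limma adjusted p = 0.00983), Ano2, a chloride channel of transduction, by 1.21 (limma adjusted p = 0.0145), and Umodl1 by 1.07 (limma adjusted p = 0.0169). When single arrays were left out, the adjusted p of limma was over 0.05 for Ano2 in 3 of 6 cases (highest 0.0716) and for Umodl1 in 5 (highest 0.0787, both without knockout replicate 3), and S100a5 passed in all 6 (highest 0.0470, without knockout replicate 1). The summed signal of the list was 13.13 to 13.41 in the arrays labelled knockout and 13.67 to 14.14 in the wildtype arrays. Of 9 immature neuron markers 2 fell and 0 rose, beside the same 1.9% and 0.144%, with a median of -0.30, namely Gap43, a growth cone protein, by 0.52 (limma adjusted p = 0.0406) and Trib3 by 0.83 (limma adjusted p = 0.0456). Leaving out 1 array ended the call of Gap43 in 6 of 6 cases (highest adjusted p 0.163, without knockout replicate 1) and that of Trib3 in 5 (highest 0.173, without knockout replicate 3). Of the 9, 7 had an unadjusted p under 0.05 (limma) and 7 stood apart in the lower direction, beside the same 10.1% and 12%. The summed signal of the 9 was 13.46 to 13.50 in the arrays labelled knockout and 13.73 to 13.82 in the wildtype arrays. The part of these neurons in the Trpa1 and Trpc4 values was not tested.

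Of 13 measured markers of bone, cartilage and mesenchyme 0 passed the test (limma, 6 at an unadjusted p under 0.05, beside 10.1% of all clusters). All 13 differences were positive, from 0.0032 for Twist1 to 1.04 for Ibsp, with a median of 0.35. Arrays of the genotypes stood apart for 6 of the 13, all in the higher direction, beside 3.51% of all clusters. Sp7, a transcription factor of osteoblasts, was at 0.59 (limma adjusted p = 0.125) and Ibsp, a bone matrix protein, had adjusted p = 0.130 (limma), and Ibsp passed without wildtype replicate 2 (limma adjusted p = 0.0299). The summed signal was 14.12 to 14.36 in the arrays labelled knockout and 13.57 to 14.03 in the wildtype arrays, and no array overlapped between the groups. Skeletal muscle markers were positive in 6 of 6 genes with a median of 0.50 and 0 calls (limma, 0 at an unadjusted p under 0.05), with Ckm at 0.53 and Tnnt3 at 0.57 (limma adjusted p = 0.630 and 0.668). Their summed signal, 9.50 to 10.90 in the arrays labelled knockout and 9.27 to 10.07 in the wildtype arrays, overlapped. The part of these tissues in the Trpa1 and Trpc4 values was not tested.

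The medians of the remaining lists lay between -0.22 and 0.17. Sustentacular, or supporting, cell markers had a median of 0.17 in 9 genes with 0 calls (limma, 2 at an unadjusted p under 0.05), and 8 of the 9 differences were positive. Their summed signal, 14.43 to 14.61 in the arrays labelled knockout and 14.33 to 14.51 in the wildtype arrays, overlapped. Their mean log2 signal, 10.21 to 10.46 in the arrays labelled knockout and 10.07 to 10.18 in the wildtype arrays, did not. The part of these cells in the Trpa1 and Trpc4 values was not tested. Muc2 was at 0.50 (limma adjusted p = 0.237) and Cyp1a2 at 0.74 (limma adjusted p = 0.363), and Muc2 passed without wildtype replicate 1 (limma adjusted p = 0.0467). Microvillous cell and ionocyte markers, among them Trpm5, had a median of 0.03 in 10 genes, and ensheathing glia markers a median of 0.04 in 8 genes. Cftr was at 0.20, Il25 at 0.07, Fabp7 at -0.45 and Npy at -0.29. Endothelial markers had a median of -0.04 in 7 genes, with Esam at -0.15 and Cdh5 at 0.11. In none of these 3 lists did a gene pass or reach an unadjusted p under 0.05 (limma). Vomeronasal markers had a median of -0.15 in 6 genes, with Tfap2e at -0.51 and Robo2 at -0.16, and melanocyte markers a median of -0.22 in 6 genes, with Mitf at -0.36 and Dct at -0.24, all with 0 calls (limma, 1 and 3 at an unadjusted p under 0.05). Of 11 brain and olfactory bulb markers 10 were negative, with a median of -0.17. In this list 1 rose and 0 fell, where 0.144% of all clusters rose and 1.9% fell. Gad2, an enzyme of GABA synthesis, rose by 0.98 (limma adjusted p = 0.0203; 2 genes of the list had an unadjusted p under 0.05, beside 10.1% of all clusters). That call of Gad2 was lost in 5 of 6 cases with 1 array left out (highest adjusted p 0.0888, without knockout replicate 1). Neurod6, a transcription factor of cortical neurons named after its values were seen, was at 4.88 or less in the arrays labelled knockout, against 4.54, 7.19 and 6.89 in the wildtype arrays. Its difference was -1.71 (limma adjusted p = 0.443), with wildtype replicates 2 and 3 far above the other 4 arrays, and without wildtype replicate 1 it was called at -2.54 (limma adjusted p = 0.0181). Tbr1 and Slc17a7, further genes of cortical neurons, were also highest in wildtype replicates 2 and 3. Of the rest of the list, Dlx2 narrowly shared this order, and Reln, Eomes, Gad1, Slc32a1, Dlx1, Dlx5 and Gad2 did not.

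**Figure D3:**
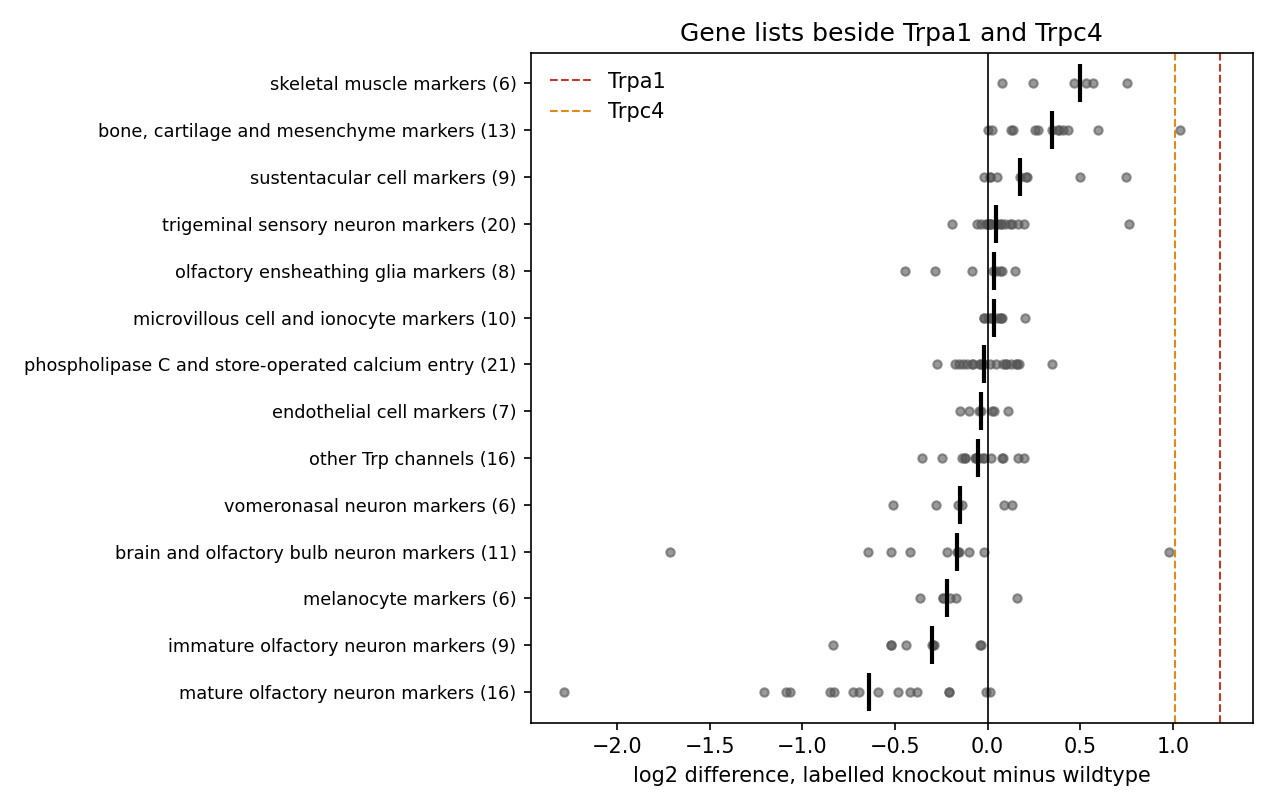
Log2 difference (arrays labelled knockout minus wildtype arrays) of every measured gene of 14 lists, 1 grey point per gene, with the list median as a black bar and the number measured in brackets. Dashed lines mark Trpa1 (1.25) and Trpc4 (1.01). The medians run from -0.64 in mature olfactory neuron markers to 0.50 in skeletal muscle markers, and among single genes Ibsp is at 1.04 and Gad2 at 0.98. Trpa1 and Trpc4 were chosen for being high, so their place beside the lists is no comparison.

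The genes next to both channels were read from the GRCm38.p6 gene table. Trpa1 and Trpc4 were chosen for being high, so smaller differences beside them are no comparison. The 3 nearest measured genes on each side of Trpa1 are Xkr9, Eya1, Msc, Terf1, Rdh10 and Stau2, and their differences ran from -0.13 to 0.22. Those beside Trpc4 are Proser1, Stoml3, Ufm1, Postn, Supt20 and Exosc8, with differences from -0.72 to 0.34. Of these 12 neighbours 0 passed (limma, 3 at an unadjusted p under 0.05 beside 10.1% of all clusters, smallest adjusted p 0.141). Proser1 was at 0.34 (limma adjusted p = 0.141). Stoml3, a protein of olfactory cilia that is also among the mature neuron markers, was at -0.72 (limma adjusted p = 0.159). Postn, a matrix protein that is also among the bone and mesenchyme markers and lies directly beside Trpc4, was at 0.26 (limma adjusted p = 0.573).

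**Figure D4:**
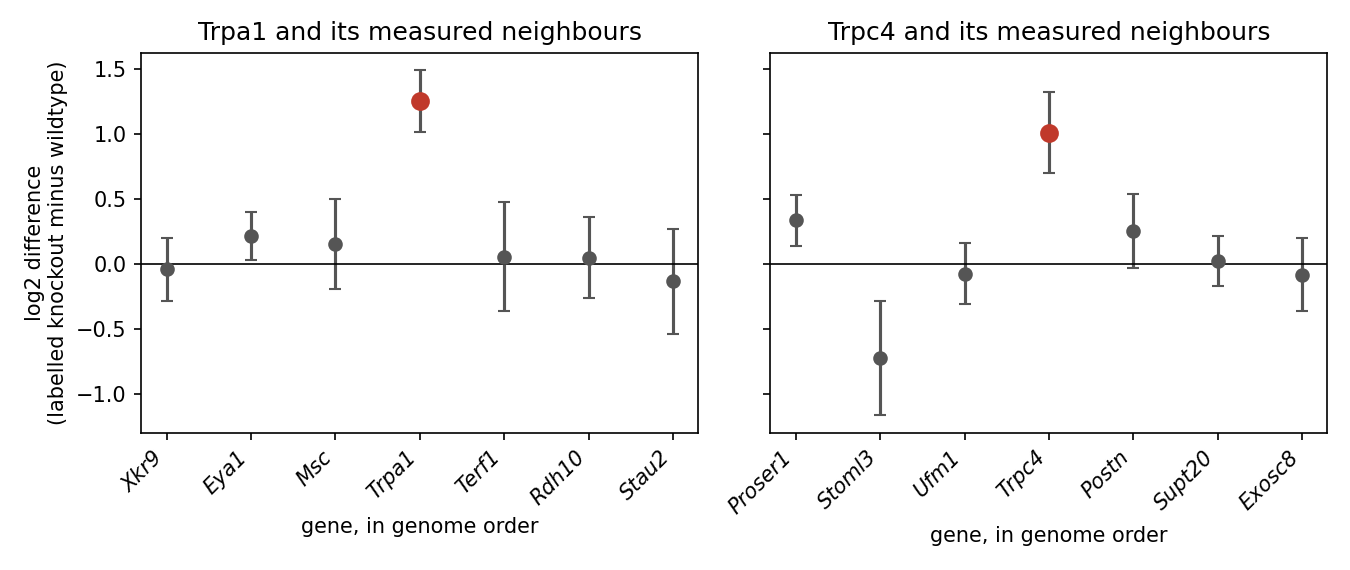
Log2 difference (arrays labelled knockout minus wildtype arrays) with 95% intervals from limma for Trpa1 and Trpc4, in red, and for the 3 nearest measured genes on each side, in genome order. Trpa1 is at 1.25 and Trpc4 at 1.01, and their 12 neighbours lie between -0.72 and 0.34. Trpa1 and Trpc4 were chosen for being high, so their place beside the neighbours is no comparison.

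The array patterns most like those of both channels were looked up among the 11491 single-gene clusters above the 25th percentile. Over the 6 arrays, the values of Alk, a receptor tyrosine kinase, had the highest Pearson correlation with Trpa1, 0.997, followed by Panx3, a pannexin of skeletal tissue, at 0.994 and Kcnh1, a potassium channel, at 0.993. Alk averaged 7.01 ± 0.07 in the arrays labelled knockout and 6.10 ± 0.07 in the wildtype arrays (SD, n = 3 each). For Trpc4 they were Fasn, a fatty acid synthase, at 0.992, Kdelr1, a retrieval receptor of the secretory pathway, at 0.991 and Gad2 at 0.987. The 6 arrays fall into the genotype groups, and a correlation does not show the size of a gap. Fasn, for example, differed by far less than Trpc4, with 9.00 ± 0.03 in the arrays labelled knockout and 8.84 ± 0.04 in the wildtype arrays (SD, n = 3 each). With the genotype means removed, the highest correlations were with Nos1 (0.999), Usp20 (0.994) and Pla2g3 (0.992) for Trpa1, and with L1cam (0.999), Doc2b (0.997) and Shoc2 (0.994) for Trpc4. For these 6 genes the groups overlapped. The correlations rest on 6 arrays and were the highest of many compared, so they are a description only.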

How the data were processed

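RNA of 6 pools was hybridised to the Mouse Exon 1.0 ST array, with targets made from 2.7 ug of total RNA, per the labels. Per the submitters' processing notes the authors used RMA, run in Affymetrix Expression Console, and the values they deposited are log2 signals. RMA corrects background, equalises array distributions and gives 1 value per probe set, which hides changes limited to some exons. No source used here gives the versions, the annotation level or the build of this step. Precision is limited by the number of arrays. The array medians lay between 7.64 and 7.73, and arrays correlated at 0.975 to 0.991 in pairs.

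Of 23238 probe sets, the 16661 in the annotated numbering range were tested (14945 with 1 gene, 983 with several, 733 with none). Where several clusters name a gene, the brightest was taken. Genotypes were compared with limma 3.58.1 in R 4.3.3 (lmFit, eBayes, two-sided, no covariate), with Benjamini-Hochberg adjustment over all 16661 clusters and a threshold of 0.05. The fit was tested on simulated data. Pools came from separate animals, so p-values set the genotype difference against the spread between pools, which limma moderates over all clusters. Plots were drawn with matplotlib 3.10.9.

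The members, lists and tests were chosen with earlier results of these data known. Named are all measured members, the 4 further Trp genes with the smallest p, up to 3 called genes of each list (otherwise the 2 with the smallest p), 3 neighbours on each side, and 3 genes of like pattern per measure. Neurod6, Tbr1, Slc17a7, Pde1c and Twist1 fall outside this rule and were picked once their values were known. The same holds for Dlx2, Reln, Eomes, Gad1, Slc32a1, Dlx1 and Dlx5. The Y-linked genes served to describe the pools. Alternatives were each array left out, the replicate number as a block, other scalings, a filter on dim clusters, other variance models, array weights, all probe sets and a Y-linked covariate.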

Additional observations from a re-analysis of the deposited data

How the results depend on the processing

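The 16 further Trp genes gave 0 calls under the 15 alternatives. For 9 of the 16 the mean lay below the 25th percentile, so the filter on dim clusters did not test them. Among the alternatives other than leaving out 1 array, Trpv5 reached 0.40, and its smallest adjusted p was 0.0802 (limma). The difference of Trpa1 lay between 1.17 and 1.30 and that of Trpc4 between 0.93 and 1.13 with 1 array left out. A repeated quantile normalization of the annotated clusters moved Trpa1 to 1.43 and turned Trpc7 to 0.15, Trpv1 to 0.064 and Trpm8 to 0.16, all dim clusters; the cause was not tested. Clusters called lower numbered 145 to 224, and those called higher 13 to 23, with 1 array left out, against 316 and 24. Lower calls were 168 with the replicate block, 109 above the 25th percentile, 144 with all probe sets and 186 with the Y-linked covariate. Deviations of same-numbered pools correlated at 0.01, 0.05 and -0.17, and those of differently numbered pools between -0.21 and 0.22. With so few pools these values cannot tell whether the replicate numbers pair the pools. Mature neuron markers called lower, 4 as reported, numbered 0 with the replicate block and 2 with all probe sets. Immature neuron markers called lower, 2 as reported, numbered 1 above the 25th percentile and 0 with the replicate block, either rescaling, all probe sets or the Y-linked covariate. Of 45 other named genes (those named from the lists by the rule, the neighbours and Neurod6), none changed sign with a call. Genes of like pattern other than Gad2, and genes other than Neurod6 picked once their values were known, were not followed singly under the alternatives. Calls were lost under some of the 15 alternatives for Gap43 (11), Trib3 (11), Umodl1 (7), Gad2 (7), Ano2 (4) and S100a5 (1). With 3 pools per genotype, the 95% intervals of the channels with differences near 0 reach from -0.42 to 0.28, and changes inside them were not resolved.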
